A study of Homo sapiens with 4 samples.

Results

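Mitochondrial ribosomal protein genes were followed in T24 and 5637, established lines from human urinary bladder carcinomas, with and without protodioscin, a steroidal saponin of plants. Members were the protein-coding genes with an MRPL or MRPS symbol followed by a number and, for some, a letter A to C, and 78 of the 60617 gene IDs in the deposited table met this rule. The 4 groups were untreated T24, T24 with 60 µM protodioscin, untreated 5637 and 5637 with 70 µM protodioscin, and the treatment lasted 6 h. Each group was 1 library of polyadenylated RNA, so no value within a group carries an error. The sample titles give these doses in micromolar and the treatment protocol gives the same figures in millimolar, and no vehicle is named for the controls. All cells were grown in RPMI medium with serum, and each line stands for 1 tumour.

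Mitochondrial ribosomes translate the messenger RNAs of the mitochondrial genome, which code for core subunits of the respiratory chain and of ATP synthase. Their ribosomal RNAs come from mitochondrial DNA, whereas every one of their proteins is encoded in the nucleus, made in the cytosol and imported. One set of these proteins has counterparts in the bacterial ribosome, and another set was added during the evolution of mitochondria. MRPL genes code for proteins of the large subunit, which forms peptide bonds, and most MRPS genes code for proteins of the small subunit, which reads the messenger RNA. By current structures, the products of MRPS30 and MRPS18A sit in the large subunit, and the product of MRPS36 belongs to the oxoglutarate dehydrogenase complex and not to the ribosome. The members here were therefore 51 genes of the large subunit, 26 of the small subunit and MRPS36. Subunit and origin were assigned from general knowledge of ribosome structures and not from a file.

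The labelled lines differed in identity markers. The summed level of 4 basal urothelial markers (KRT5, KRT6A, TP63 and CDH3) was 1000 and 798 FPKM (fragments per kilobase of transcript, corrected for library size) in untreated and treated 5637 and 0.108 and 0.037 FPKM in T24. The summed level of 6 epithelial markers was 1972 and 1571 FPKM in T24 and 3959 and 3414 FPKM in 5637, and the epithelial cadherin CDH1 was at 0.016 and 0 FPKM in T24. Of 4 mesenchymal markers, VIM was higher in 5637, at 304 and 267 FPKM against 68.0 and 61.4 FPKM in T24. FN1, ZEB1 and CDH2 were higher in T24, with FN1 at 1530 and 1419 FPKM against 235 and 191 FPKM in 5637. The luminal transcription factor GATA3 was at 14.5 to 17.6 FPKM in all 4 libraries. Of the other luminal regulators, PPARG was at 17.6, 16.2, 50.4 and 37.5 FPKM and FOXA1 at 19.9, 19.4, 4.84 and 4.78 FPKM (untreated and treated T24, then untreated and treated 5637), while the uroplakins UPK2 and UPK3A were at 0.211 FPKM or less. The summed level of 4 leukocyte markers was at most 0.171 FPKM, that of 3 endothelial markers at most 1.98 FPKM and that of 4 fibroblast markers at most 7.94 FPKM. Relative sequencing depth, read from the spacing of the lowest values, was between 1 and 1.43 times that of untreated T24.

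With mitochondrially encoded genes in the FPKM sum, the module took nearly the same part of each library, and its subunits kept nearly the same ratio. All 78 members were at 1 FPKM or more in all 4 libraries. Their summed level was 0.615% of the FPKM sum in untreated T24, 0.606% in treated T24, and 0.613% in both 5637 libraries. The median member was at 21.1 FPKM in untreated T24, 20.8 FPKM in treated T24, 20.1 FPKM in untreated 5637 and 22.5 FPKM in treated 5637. Over the 12893 genes in the fit, those that reached 1 FPKM in 2 libraries or more, the median lay between 8.24 and 8.55 FPKM. The ratio of the summed small-subunit level to the summed large-subunit level was 0.441, 0.438, 0.435 and 0.441 in the same order of libraries.

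Within the module, levels covered a wide range, from 3.03 to 91.5 FPKM. The highest members by mean log2 level were MRPL3, MRPL12, MRPL37, MRPL20, MRPL28 and MRPS24. MRPL3, which codes for a core protein of the large subunit, was at 72.1, 66.2, 76.4 and 77.2 FPKM in untreated T24, treated T24, untreated 5637 and treated 5637, the order used for all values by library below. MRPL12 codes for the protein of the flexible stalk that engages translation factors, and it was at 56.7, 52.0, 91.5 and 82.7 FPKM. The lowest members were MRPL42, MRPS36, MRPS25 and MRPL50. MRPL42 was at 3.03, 3.36, 3.70 and 4.48 FPKM, and MRPL50 at 4.72, 4.48, 6.05 and 6.23 FPKM. The order of the members was much the same in both lines, with a Spearman rho of 0.889 between mean levels in T24 and in 5637 over 78 genes, which share transcript lengths and annotation. On a transcript of 1 kb, counting error alone would be 4.13% to 4.82% of the level of the median member and 9.61% to 12.7% of the level of the lowest.

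**Figure D1:**
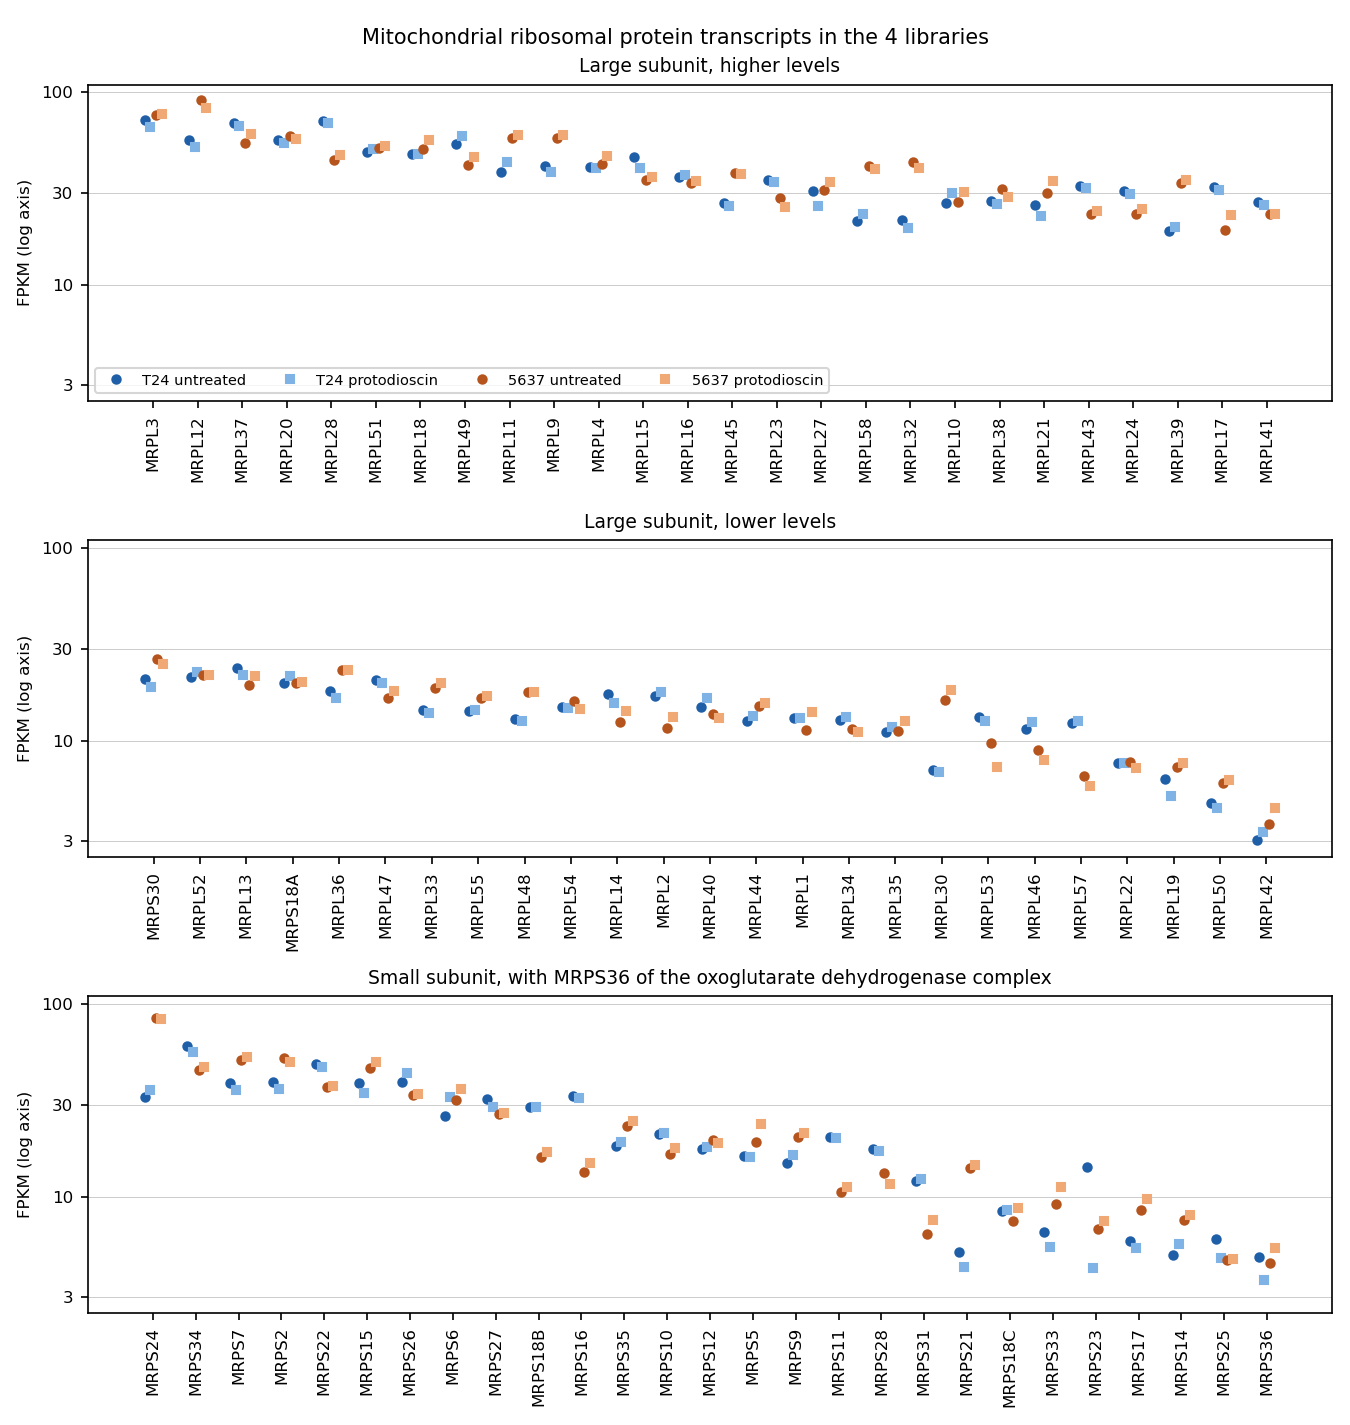
FPKM of each member in the 4 libraries on a log axis, with 1 point per library, blue for T24, orange for 5637, circles for untreated and squares for treated cells. Members run from 3.03 to 91.5 FPKM, and for most of them the circle and the square of a line lie close together.

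The study asked how the mRNA profile of these lines changes with protodioscin. Within each line the members stayed close to their untreated level. In T24, the median difference (treated minus untreated, on the log2(FPKM + 1) scale) was −0.033 over the members and 0.021 over all genes in the fit. In 5637 these medians were 0.050 and 0.041. In T24, 70 of 78 members (89.7%) lay within 0.2 of their untreated value, against 74.6% of all 12193 genes compared in that line. In 5637, 68 members (87.2%) lay within 0.2, against 76.1% of 12635 genes. The genes compared, here and below, were not matched to the members in level. A 2-fold difference was reached in T24 by MRPS23 alone, where 0.484% of all genes reached it in either direction. It was also the only member 0.5 or more lower in T24, as 2.23% of all genes were, and no member was 0.5 or more higher, as 1.03% of all genes were. In 5637 no member reached 2-fold, where 0.388% of all genes did, and none reached 0.5 on the log2 scale, where 1.01% of all genes were that much higher and 1.11% that much lower.

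MRPS23, which codes for a small-subunit protein without a bacterial counterpart, was the member with the largest difference. Its gene (ENSG00000181610) lies on the minus strand of chromosome 17, from 57834781 to 57850056 on GRCh38, and has 4 annotated transcripts. It was at 14.2 FPKM in untreated T24, 4.26 FPKM in treated T24, 6.79 FPKM in untreated 5637 and 7.45 FPKM in treated 5637. Untreated T24 was the highest of the 4 libraries and treated T24 the lowest, with both 5637 libraries between them. The difference was −1.53 in T24 and 0.12 in 5637. Depending on the pseudocount, the T24 difference was −1.05 (pseudocount 5) to −1.71 (pseudocount 0.1). Over both lines the limma coefficient for treatment was −0.71 with an SE of 0.35 and a Benjamini-Hochberg adjusted p of 0.556, and over the alternatives that keep the cell line as a term this adjusted p ranged from 0.483 to 0.800. MRPS23 shares no exon with another annotated gene. The 52 genes within 5 Mb of it that are not members had a median T24 difference of 0.067. On a 1 kb transcript, counting error would be 5.89% of its level in untreated T24 and 9.49% in treated T24, and no second T24 library exists to give the spread between cultures.

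Without MRPS23, the differences of the other 77 members ran from −0.319 to 0.308 in T24 and from −0.370 to 0.298 in 5637. At the lower end in T24 stood MRPS36 at −0.32, MRPS25 at −0.28, MRPL27 at −0.26 and MRPL19 at −0.25. MRPS36, the oxoglutarate dehydrogenase subunit, was at 4.85, 3.69, 4.52 and 5.39 FPKM. MRPS25, a small-subunit protein added in mitochondria, was at 6.00, 4.78, 4.67 and 4.72 FPKM. All but MRPL27 of these genes were at low levels, under 8 FPKM in each library. At the upper end in T24 stood MRPS6 at 0.31, followed by MRPL11 at 0.18, MRPL10 at 0.17, MRPS14 at 0.16 and MRPS26 at 0.15. In 5637 the upper end was MRPS5 at 0.30, MRPL1 at 0.29, MRPS33 at 0.27, MRPL17 at 0.25 and MRPL42 at 0.22. MRPS5 was at 16.2, 16.1, 19.2 and 23.9 FPKM, so that treated 5637 stood above the other 3 libraries. The lower end in 5637 was MRPL53 at −0.37, MRPS28 at −0.18, MRPL46 at −0.16, MRPL23 at −0.14 and MRPL12 at −0.14. MRPL53 was at 13.3, 12.6, 9.71 and 7.29 FPKM, and it shares exons on its strand with CCDC142, which was at 4.94, 5.64, 5.77 and 6.35 FPKM, so part of the split between these genes rests on the authors' assignment of reads.

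The direction of these small differences was not the same in both lines. In T24, 47 of 78 members (60.3%) were below their untreated value, against 44.0% of all genes. In 5637, 57 members (73.1%) were above it, against 61.5% of all genes. With median-ratio scaling this count in 5637 was 36 members, against 46.2% of all genes, and on the TPM scale it was 45, against 50.4%. A lower value in T24 together with a higher value in 5637 was seen for 35 members (44.9%), against 23.2% of all genes. Another 22 members were higher in both lines, where 37.5% of all genes were, and 12 were lower in both, where 20.1% were. The remaining 9 were higher in T24 and lower in 5637, where 17.6% of all genes were. The count of 35 moved with the scaling, to 26 (18.7% of all genes) with median-ratio scaling, 27 (18.1%) on the TPM scale and 40 (28.3%) without mitochondrially encoded genes. The median in 5637 was −0.011 with median-ratio scaling, so its sign depends on the scaling. A fit with a term for unequal responses of the lines leaves no degree of freedom, so the difference between the lines in response was not tested. Across the 78 members, the T24 and 5637 differences had a Spearman rho of −0.033, against 0.186 over all genes in the fit. With a rho this near 0, the count of 35 follows largely from the counts in each line alone and adds little to them.

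RNAs of the mitochondrial genome, of which these ribosomes translate the messenger RNAs, differed in the same directions. The 15 mitochondrially encoded genes include MT-RNR1 and MT-RNR2, whose ribosomal RNAs are not translated. Of the 15, 13 were lower in treated than in untreated T24, against 44.0% of all genes. In 5637, 15 were higher in treated than in untreated cells, against 61.5% of all genes. The medians over the 15 were −0.26 in T24 and 0.33 in 5637. MT-CO1, a core subunit of cytochrome c oxidase, was at 2713, 2085, 3999 and 4988 FPKM. The mitochondrial genome held 4.50% and 3.74% of the FPKM sum in T24 and 9.84% and 11.9% in 5637. This share enters the scale of every other gene, and its part in the members' differences was not tested beyond the rescaling without mitochondrial genes given above.

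**Figure D2:**
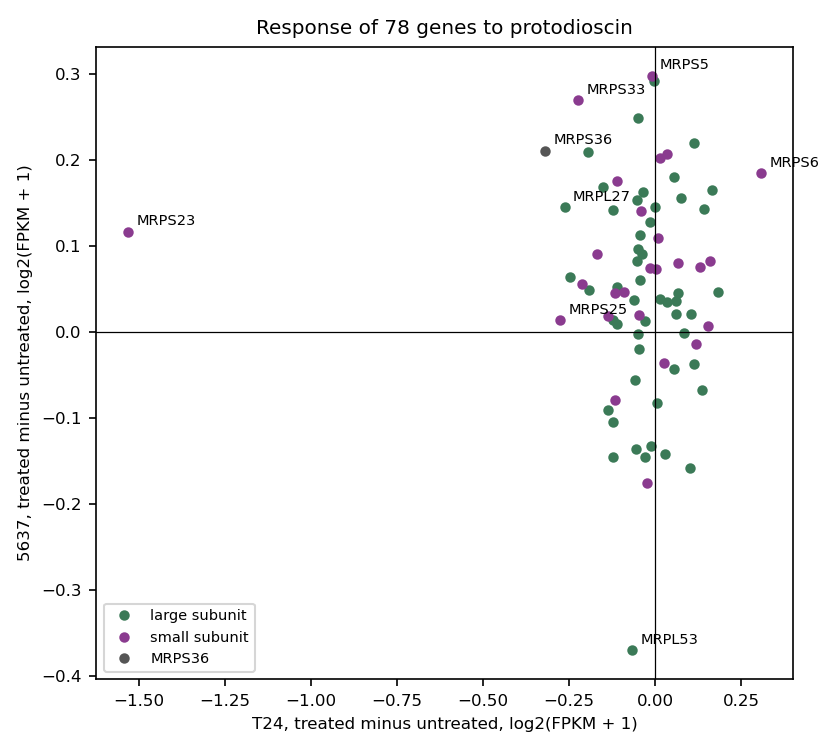
Treated minus untreated log2(FPKM + 1) of each of the 78 genes in T24 (horizontal) and in 5637 (vertical), coloured by subunit. MRPS23 stands apart at −1.53 in T24, and the other members lie between −0.37 and 0.31 in both lines.

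Tested over both lines together, no member was called for treatment by limma at a Benjamini-Hochberg adjusted p below 0.05, and none of the 12893 genes was (0.0%). At an unadjusted p below 0.05 by limma, 2 members were higher with treatment, where 5.58% of all genes were, and 0 were lower, where 3.94% of all genes were. These were MRPS6 and MRPL10. MRPS6, a small-subunit protein with a bacterial counterpart, was at 26.3, 32.8, 31.8 and 36.3 FPKM, and each treated library stood above the untreated library of its line. Its limma coefficient was 0.25 with an SE of 0.07 and a Benjamini-Hochberg adjusted p of 0.482, the lowest of any member, and it shares exons on its strand with SLC5A3, a solute carrier gene at 4.60 to 6.57 FPKM. Across the alternatives with cell line in the fit, the lowest adjusted p of any member was between 0.460 and 0.800. MRPL10, part of the base of the stalk, was at 26.6, 30.03, 27.0 and 30.4 FPKM, with a limma coefficient of 0.17, an SE of 0.06 and a Benjamini-Hochberg adjusted p of 0.519. The stalk protein gene MRPL12 went the other way, with differences of −0.12 in T24 and −0.14 in 5637 and a Benjamini-Hochberg adjusted p of 0.535 by limma. The members with the next largest shared differences upward were MRPL49 at 0.14 in both lines, MRPL42 at 0.11 and 0.22, and MRPS14 at 0.16 and 0.08. Those downward were MRPL32 at −0.12 and −0.10, MRPS30 at −0.14 and −0.09, MRPS2 at −0.12 and −0.08, and MRPL53 at −0.07 and −0.37. None of these was called.

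Between the lines the members differed more than with treatment. By limma, 52 of 78 members (66.7%) differed at a Benjamini-Hochberg adjusted p below 0.05, against 68.9% of all genes. Of these, 23 were higher in T24, where 35.1% of all genes were, and 29 were higher in 5637, where 33.9% were. This split was 16 and 35 without mitochondrially encoded genes and 28 and 25 on the TPM scale, where 67.6% and 65.8% of all genes were called in either direction. The share of members called is near that of all genes in the filtered fit. With no filter on low values 37 of the same 78 members were called, against 29.5% of 27829 genes. That larger set adds genes below the filter, while every member is above it, so the members cannot be set against this share. The members' line differences were smaller in size than those of all genes in the fit, a set not matched to them in level. Median levels by library were 20.1 to 22.5 FPKM for the members and 8.24 to 8.55 FPKM for that set. Only 4 members (5.13%) differed by 1 or more on the log2 scale, against 18.9% of all genes. Within 0.2 lay 23 members (29.5%), against 25.1% of all genes. At 0.5 or more, 8 members were higher in T24 and 12 higher in 5637, where 21.9% of all genes were in each direction. Both T24 libraries stood above both 5637 libraries for 30 members, where 42.4% of all genes did, and below them for 37, where 40.9% did. Across the 78 members, the line differences in untreated and in treated cells had a Spearman rho of 0.876. No label says that the libraries came from separate cultures. With cell line and treatment in the fit, what remains of a gene is the gap between its treatment differences in T24 and 5637. The limma p-values, for line and for treatment, are scaled by this gap, weighed with that of genes of similar level. Technical spread may be part of it, and the fit cannot separate this from unequal responses. MRPS23, at −1.53 in T24 and 0.12 in 5637, had an SE of 0.35 for this reason.

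The 4 members past 1 on the log2 scale between the lines all code for proteins with bacterial counterparts, as do 46 of the 78 members. MRPS21 (ENSG00000266472, chromosome 1, 150293720 to 150308979) was at 5.18, 4.33, 14.0 and 14.6 FPKM, a mean 3.01-fold higher in 5637, with a limma coefficient (T24 minus 5637) of −1.42, an SE of 0.10 and a Benjamini-Hochberg adjusted p of 7.01e-05. MRPS24 (ENSG00000062582, chromosome 7, 43866558 to 43869893) was at 33.2, 36.1, 84.5 and 83.7 FPKM, with a coefficient of −1.26, an SE of 0.07 and an adjusted p of 2.14e-05 by limma. MRPL30 (ENSG00000185414, chromosome 2, 99181079 to 99197626) was at 7.08, 6.88, 16.2 and 18.3 FPKM, with a coefficient of −1.19, an SE of 0.09 and an adjusted p of 8.18e-05 by limma. For these 3 genes both 5637 libraries were more than 2-fold above both T24 libraries. MRPS16 (ENSG00000182180, chromosome 10, 73248843 to 73252693) went the other way, at 33.4, 32.4, 13.4 and 14.9 FPKM, with a coefficient of 1.16, an SE of 0.08 and an adjusted p of 5.45e-05 by limma. It shares exons on its strand with DNAJC9, a chaperone gene that was at 25.1, 27.1, 14.7 and 16.5 FPKM, and MRPS24 and MRPL30 share exons with readthrough or unnamed genes that were under 1 FPKM in every library.

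The next members higher in 5637 were MRPL32, MRPL58, MRPL39, MRPS33 and MRPL12, with coefficients of −0.98, −0.83, −0.79, −0.67 and −0.67. MRPL32 was at 21.7, 19.9, 43.6 and 40.5 FPKM. MRPL58, a peptidyl-tRNA hydrolase that became part of the large subunit, was at 21.5, 23.3, 41.2 and 40.2 FPKM, 1.82-fold higher in 5637 on average. MRPL45, a protein at the exit of the nascent chain that helps to hold the ribosome at the inner membrane, was at 26.6, 25.7, 38.0 and 37.5 FPKM, with a coefficient of −0.51. In each of these genes the 5637 libraries stood above the T24 libraries without overlap. Higher in T24 were MRPL57, MRPS11, MRPS18B, MRPS31, MRPL28, MRPL53 and MRPL17, with coefficients of 0.92, 0.85, 0.78, 0.72, 0.61, 0.56 and 0.56. MRPL57, a small protein added in mitochondria, was at 12.4, 12.7, 6.55 and 5.84 FPKM. MRPS11 was at 20.5, 20.2, 10.6 and 11.2 FPKM. MRPL28, which was at 71.3, 69.3, 44.3 and 47.3 FPKM, shares exons on its strand with PGAP6, at 27.3, 28.5, 15.0 and 14.0 FPKM. Each of these genes was called by limma, with Benjamini-Hochberg adjusted p-values from 5.07e-05 for MRPL32 to 0.00487 for MRPS33. With no filter on low values the adjusted p of MRPS33 by limma was 0.0676, so that its call was lost.

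**Figure D3:**
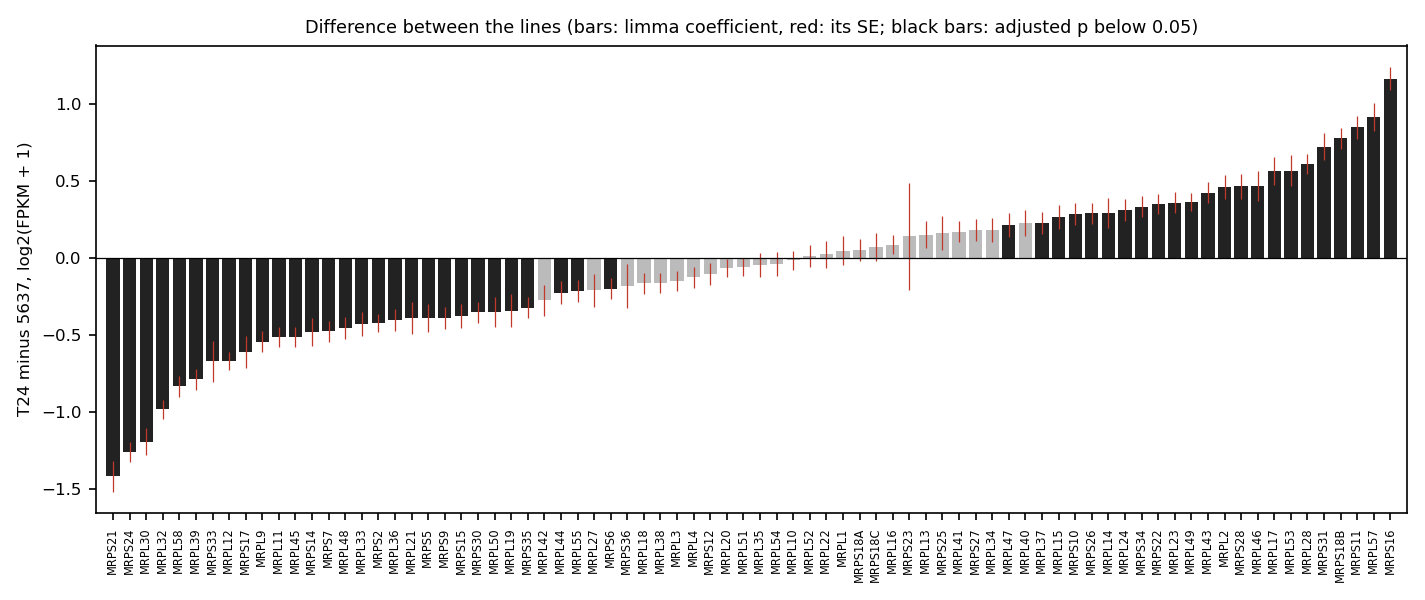
limma coefficient for T24 minus 5637 of each member on the log2(FPKM + 1) scale, in order, with the SE in red and bars in black where the Benjamini-Hochberg adjusted p was below 0.05. Bars run from −1.42 for MRPS21 to 1.16 for MRPS16, and MRPS23 has the widest SE.

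By subunit and origin, the line difference had a median of −0.38 over the 16 small-subunit members with bacterial counterparts, 11 of which were higher in 5637. Over the 10 small-subunit members added in mitochondria the median was 0.23, and 8 of them were higher in T24. Of all genes in the fit, 50.9% had a line coefficient above 0. The large subunit showed no such contrast, with medians of −0.06 over 30 members with bacterial counterparts and −0.04 over 21 added members. The median over all genes in the fit was 0.014. The difference between these groups of genes was not tested. Among the 8 added small-subunit members higher in T24 is MRPS23, with a line difference of 0.96 in untreated and −0.68 in treated cells. Mitoribosomal proteins without an MRPL or MRPS symbol are outside these groups. Of the 5 listed, DAP3, PTCD3, GADD45GIP1 and AURKAIP1 were higher in 5637 (coefficients −0.61, −0.41, −0.36 and −0.16). CHCHD1 was higher in T24 (0.70). MRPS18A, MRPS18B and MRPS18C are paralogs of 1 bacterial protein that take different places in the ribosome, and MRPS18A and MRPS18B were counted above with the added proteins because neither takes the place of the bacterial one. Counted with the bacterial counterparts instead, a choice made after seeing the data, they left medians of −0.38 over 17 and 0.18 over 9 small-subunit members and of −0.05 over both the 31 and the 20 large-subunit members. MRPS18A was at 20.04, 21.6, 19.9 and 20.2 FPKM and MRPS18C at 8.46, 8.56, 7.45 and 8.72 FPKM, and limma called neither between the lines (coefficients 0.05 and 0.07, Benjamini-Hochberg adjusted p 0.539 and 0.524). MRPS18B was at 29.1, 29.2, 16.2 and 17.04 FPKM, with an adjusted p of 0.000167 by limma. MRPS30, the other member of the large subunit under an MRPS name, was at 21.0, 19.1, 26.7 and 25.03 FPKM.

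Line differences of the members went with those of their chromosomal neighbours. The neighbours were the genes in the fit within 5 Mb of a member that are not members themselves, between 12 and 205 of them, and this window was chosen after values had been seen. The member and the median of its neighbours lay on the same side of 0 for 63 of 78 members (80.8%), against 67.4% of all other genes. Over the 78 members, Spearman's rho between the member's coefficient and its neighbours' median was 0.740 and Pearson's r 0.705, against 0.421 and 0.318 over all other genes. These are descriptions, since neighbouring members share windows. On chromosome 7, all 4 members (MRPL32, MRPS17, MRPS24 and MRPS33) were higher in 5637, and the median over all 649 genes of that chromosome was −0.55. On chromosome 16, both members (MRPL28 and MRPS34) were higher in T24, and the median over its 598 genes was 0.55. On chromosome 13, MRPL57 had a coefficient of 0.92 beside a neighbours' median of 0.62, and MRPS31 one of 0.72 beside 0.46. MRPS21 on chromosome 1 lay farther from its neighbours, with a coefficient of −1.42 beside a median of −0.26, as did MRPS25 on chromosome 3, with 0.16 beside −0.96. Among members on the other side of 0 from their neighbours were also MRPL11 on chromosome 11, with −0.51 beside 0.18, and MRPL53 on chromosome 2, with 0.56 beside −0.02.

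**Figure D4:**
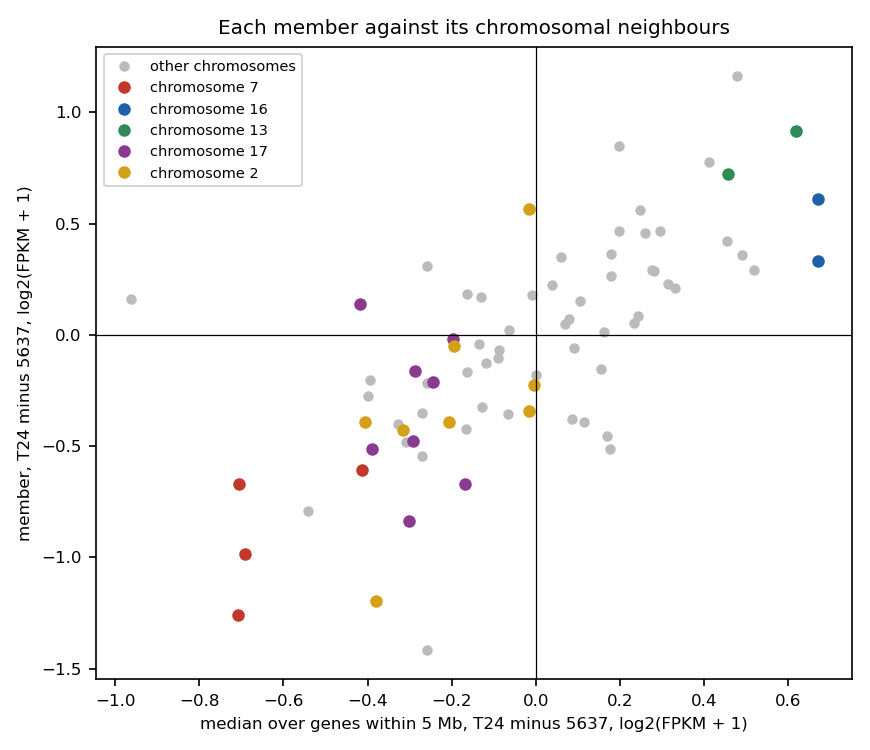
Coefficient for T24 minus 5637 of each member (vertical) against the median coefficient of the genes within 5 Mb of it (horizontal), both on the log2(FPKM + 1) scale, with 5 chromosomes in colour. The 4 members of chromosome 7 lie at the lower left and the members of chromosomes 13 and 16 at the upper right.

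Some members start head to head with another gene, an arrangement in which genes on opposite strands start close together. A protein-coding gene on the other strand started within 1 kb of 19 members, and 15 pairs had both genes in the fit. The share of all genes with such a partner was not counted. Line coefficients were on the same side of 0 in 12 of these pairs (80.0%), against 70.8% of 583 other such pairs. MRPL57 and SKA3, which codes for a kinetochore protein, had coefficients of 0.92 and 0.92, and SKA3 was at 29.8, 29.4, 15.5 and 14.8 FPKM. MRPL32 and the proteasome subunit gene PSMA2 had coefficients of −0.98 and −0.82, with PSMA2 at 22.5, 21.0, 38.4 and 40.1 FPKM. MRPL46 and MRPS11, both members, had coefficients of 0.47 and 0.85. An exception was MRPL27 with EME1, a DNA repair gene, at −0.21 and 0.60. MRPL32 and PSMA2 also share exons on opposite strands, and the library kit does not mark strand, so reads of the shared part could have gone to either gene. In all, 16 members share exons with a gene on the same strand and 29 with a gene on the opposite strand, and 37 share none.

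Promoter stretches from RefSeq (GRCh38.p14, 250 bases before to 50 after the start) were found for 69 of 78 members. The motifs searched, on both strands, are those of factors known for nuclear genes of mitochondria, and they were chosen with the values of these data known. The ETS motif CCGGAAG, which GABP and other ETS factors bind, was in 29 of 69 stretches (42.0%), against 20.5% of the stretches of genes in the fit and 10.7% of all 27305. The YY1 motif AAGATGGC was in 20 (28.99%), against 5.65% and 3.03%. The palindromic NRF1 motif was in 8 (11.6%), against 12.3% and 6.28%. The E-box CACGTG was in 6 (8.70%), against 10.3% and 7.43%, and TATAAA was in 2 (2.90%), against 5.30% and 12.0%. Within 50 bases of the start lay an ETS match in 24 members and a YY1 match in 16. The YY1 motif holds the letters ATG, and matches after the start can include a start codon. Stretches of 30 bases around a match are shown for 8 members named above, with the YY1 match in capitals in the first 4 and the ETS match in capitals in the last 4, 5′ to 3′ on the strand of the gene.
MRPS24: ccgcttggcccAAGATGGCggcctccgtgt
MRPL32: acccgcgctccGCCATCTTtacccgaagag
MRPS18B: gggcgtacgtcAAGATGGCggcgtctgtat
MRPL46: tgggagaacgaAAGATGGCggcgcccgtaa
MRPS23: tggagcagccgCTTCCGGttccggtagcag
MRPS21: tagtgagaaccCTTCCGGtgggctaggtac
MRPL30: ggtctgctgcgCTTCCGGgaagtggtcatg
MRPS16: cggatcatccgCTTCCGGagtcgaggtttt

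These stretches are chr7:43869480-43869509 (minus strand) for MRPS24, chr7:42932143-42932172 (plus) for MRPL32, chr6:30617852-30617881 (plus) for MRPS18B and chr15:88467362-88467391 (minus) for MRPL46. Those with the ETS motif are chr17:57850040-57850069 (minus) for MRPS23, chr1:150293857-150293886 (plus) for MRPS21, chr2:99181028-99181057 (plus) for MRPL30 and chr10:73252621-73252650 (minus) for MRPS16. The YY1 match lies after the start in MRPS24, MRPS18B and MRPL46 and before it in MRPL32, where it is the reverse complement. Of the members shown with this motif, MRPS24 and MRPL32 were higher in 5637 and MRPS18B and MRPL46 higher in T24. MRPL45 (coefficient −0.51) and MRPS7 (−0.48), both higher in 5637, also hold it and are not shown. The 29 members with an ETS match had a median line coefficient of 0.05 and the 40 without one −0.25, and for YY1 these medians were −0.08 (20 members) and −0.13 (49 members). In T24 the median treatment differences of members with and without an ETS match were −0.04 and −0.02, and in 5637 they were 0.04 and 0.05. A match is a description of the letters and was not tested as a binding site.

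**Figure D5:**
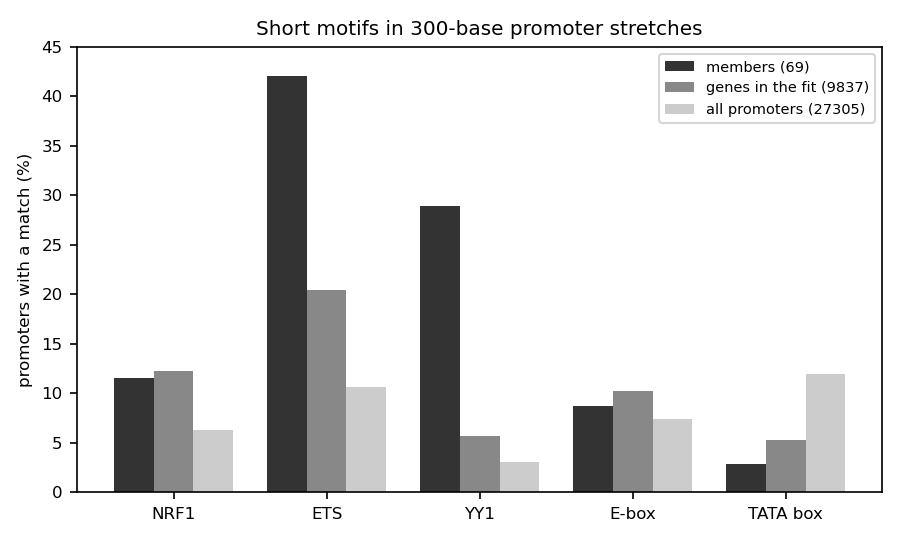
Share of promoter stretches with at least 1 match to each of 5 motifs, for the 69 members found, for genes in the fit and for all RefSeq stretches. The bars of members stand above both others for ETS (42.0%) and YY1 (28.99%), and below both for TATAAA (2.90%).

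The factors named for these motifs, with other regulators of nuclear genes for mitochondria, were measured as well. YY1 was at 21.8, 22.4, 22.2 and 20.9 FPKM, NRF1 at 6.56, 5.98, 7.20 and 7.67 FPKM and GABPA at 7.19, 7.42, 8.63 and 8.78 FPKM. GABPB1, the partner of GABPA, was at 13.9, 12.2, 12.4 and 12.7 FPKM. MYC, a transcription factor that drives growth and ribosome genes, was at 42.8, 25.5, 67.2 and 56.99 FPKM, with differences of −0.73 in T24 and −0.23 in 5637. PPRC1, a coactivator related to PGC-1, was at 24.1, 17.5, 15.7 and 14.6 FPKM, with differences of −0.44 and −0.10. By limma over both lines neither was called, with Benjamini-Hochberg adjusted p-values of 0.482 for MYC and 0.505 for PPRC1. ESRRA, a nuclear receptor, was at 15.6, 15.4, 26.5 and 25.4 FPKM, and HCFC1 at 34.6, 36.2, 28.0 and 25.3 FPKM. PPARGC1B was at 0.068, 0.096, 1.28 and 1.09 FPKM, and PPARGC1A was at 0.118 and 0.062 FPKM in 5637 and is listed at 0 for T24.

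No gene of the lists for mitochondrial translation was called for treatment by limma, as no gene in the fit was. The 5 other mitoribosomal proteins of the list had medians of −0.002 in T24 and −0.020 in 5637. Among them, DAP3, a GTP-binding small-subunit protein, was at 28.6, 31.6, 43.8 and 48.8 FPKM, and each treated library stood above the untreated library of its line. Of 24 assembly factors and modifiers of ribosomal RNA, 13 were higher in T24 with treatment and 15 in 5637, with medians of 0.002 and 0.034. The largest difference in that list was 0.48 in 5637 for YBEY, an RNA-processing factor, at 3.02, 3.30, 1.93 and 3.09 FPKM. MRM2, a methyltransferase of ribosomal RNA, was at 8.34, 6.85, 18.1 and 13.6 FPKM. The 16 translation factors had medians of 0.035 and 0.017, and the elongation factor TUFM was at 91.9, 94.2, 70.7 and 68.8 FPKM. The 9 genes of mitochondrial transcription and DNA maintenance had medians of −0.124 and 0.063, with 7 of 9 lower in treated T24 and 5 of 9 higher in treated 5637. TFAM, which packages mitochondrial DNA and starts its transcription, was at 16.1, 16.7, 10.2 and 10.7 FPKM.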

How the data were processed

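The authors deposited gene-level FPKM for 4 libraries. The submitters' processing notes list Trimmomatic, HISAT2, StringTie and GRCh38, without versions or settings. Per the labels' protocols, TruSeq RNA v2 libraries were sequenced as paired-end reads of 150 bases. Members and lists were chosen with earlier results of these data known. Gene names, types and exons came from a table of gene names and GENCODE 29 (bedtools 2.31.1). Values were analysed as log2(FPKM + 1), which understates changes of low genes. limma 3.58.1 (R 4.3.3) fitted cell line and treatment over all 4 libraries, with a trended prior variance and 1 residual degree of freedom, on the 12893 genes that reached 1 FPKM in 2 libraries or more, with Benjamini-Hochberg adjustment over all of them. The fit was also run on simulated data, with noise drawn from its own prior variance and equal treatment changes in both lines. Such data cannot show how it behaves where the lines respond unequally. Within a line, with 1 library a group, no test was made. Depth was read from the spacing of low values: 1 read on 1 kb was worth 0.0171 to 0.0246 FPKM, and read totals are unknown. Counting errors assume 2 reads per fragment. Members named are the highest and lowest in level, in difference within and across lines, and in line coefficient, with the MRPS18 paralogs and members with special roles, 42 in all. Others (MRPS34 and MRPS17 by chromosome, MRPS7 by motif, head-to-head partners, and TUFM, TFAM and MT-CO1 of the lists) were chosen after their values were seen. So were the 0.2 band, the 5 Mb window and the tolerances. Alternatives covered pseudocount, filter, scaling, exon sharing, mitochondrial genes, prior variance and, chosen after seeing the data, the origin given to MRPS18A and MRPS18B.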

Additional observations from a re-analysis of the deposited data

Results flagged for a closer look

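Of the members named by rule, 5 differed in opposite directions in the lines, with at least 0.1 on the log2(FPKM + 1) scale in each, and none of these differences between responses was tested, since 1 library per group leaves no degree of freedom. The response in T24 minus that in 5637 was −1.65 for MRPS23, −0.53 for MRPS36, −0.49 for MRPS33 and −0.41 for MRPL27. It was 0.26 for MRPL46, the one member of these with a higher value in treated T24. Outside the members named by rule, MRPL21 (−0.20 in T24 and 0.21 in 5637), MRPL14 (−0.15 and 0.17), MRPS17 (−0.11 and 0.18) and MRPL13 (−0.12 and 0.14) also differed this much in opposite directions. The share of all genes that did so was not counted. The medians over the 78 members also had opposite signs, with a difference of −0.084, and the sign of the 5637 median depends on the scaling.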

How the results depend on the processing

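Of 61 alternative values of the main results, 55 kept their direction and size within the tolerances set (0.05 on the log2 scale for medians, 10% for shares, 1.5 times for counts). The tolerance for medians is about as large as the medians themselves (−0.033 in T24, 0.050 in 5637, −0.054 between the lines). It therefore says little about their size, and the 5637 median counted as kept at 0.0087 on the TPM scale. Treatment calls, with no member called under any setting, counted as kept throughout. The exceptions all came from scaling or from the set of genes. The members' median in 5637 was −0.011 with median-ratio scaling. The median between the lines was 0.027 on the TPM scale, −0.0025 without genes whose exons overlap another gene's on the same strand and −0.155 without mitochondrially encoded genes. The members' share of the FPKM sum was 0.680% and 0.697% in untreated and treated 5637 without mitochondrially encoded genes. In T24 these shares were 0.643% and 0.630%. Line coefficients near 0 changed sign for 11 members. These were MRPL10 (0.065), MRPL20 (0.015), MRPL35 (0.030), MRPL51 (0.023) and MRPL54 (0.039) on the TPM scale, MRPL1 (−0.051), MRPL16 (−0.016), MRPL22 (−0.071), MRPL52 (−0.090), MRPS18A (−0.050) and MRPS18C (−0.024) without mitochondrially encoded genes, MRPL22 (−0.014) and MRPL52 (−0.029) with median-ratio scaling and MRPL52 (−0.039) with quantile normalization. None of the 11 was called between the lines, either as reported or under the alternative that changed its sign. With no filter, 37 members were called between the lines, against 52, and 29.5% of 27829 genes were, a set that adds genes below the filter. The fit keeps the cell line as a term and so pairs the treated and untreated library of each line, and without that term 0 members were called with treatment too. Leaving out 1 library leaves no residual degree of freedom. No treatment call was made under any alternative, by limma.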
